A study of Mus musculus with 10 samples.

Results

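Cholesterol and fatty acid synthesis genes were followed across 5 groups of J1 cells, an established line of mouse embryonic stem cells. The set holds 29 genes chosen by name: the enzymes that build cholesterol from acetyl-CoA, the proteins that regulate that pathway, and the main enzymes of fatty acid synthesis. All 29 had a probe on the array, 60 probes in all, and all 29 were among the 20663 genes tested.

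Cells were transfected with siRNA against Ino80, Ino80b, Ino80c or Ino80e, or with a non-targeting siRNA (NT), and total RNA was taken 96 hours later. They were kept in ESGRO medium and moved to M15 medium for the transfection. Each of the 5 groups had 2 arrays, which the series' design text calls biological replicates. A knockdown here is therefore a transient one in a single cell line, with no untransfected group. Ino80 encodes the ATPase of the INO80 chromatin remodelling complex, and Ino80b, Ino80c and Ino80e encode other subunits of it.

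Cells make cholesterol from acetyl-CoA in a long chain of steps. Acetyl units are joined into mevalonate, mevalonate is turned into isoprenoid units, these are joined into squalene, squalene is closed into lanosterol, and lanosterol is trimmed to cholesterol. The chain is controlled by SREBP transcription factors (genes Srebf1 and Srebf2), which the escort protein SCAP carries out of the endoplasmic reticulum when sterol is low and which INSIG proteins hold back when sterol is high. Freed SREBP binds sterol response elements, usually beside NF-Y, and raises most genes of the chain together. SREBP-1 also drives fatty acid synthesis. Dividing cells need both products for new membranes.

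Expression is given as the log2 intensity of a probe relative to the 75th percentile of its array, so that 0 is that percentile. Log2 fold changes are knockdown minus NT with their standard error (limma, n = 2 arrays in each group), and a gene is called at an adjusted p under 0.05 over all 20663 genes. Levels of different probes are not comparable with each other. On single arrays 66.4% to 79.0% of probes stood clear of background, and every probe used to represent a gene of the set did so on all 10 arrays. The targeted RNA stood at 43.6% of its NT level with Ino80 siRNA, 24.9% with Ino80b siRNA, 19.8% with Ino80c siRNA and 43.4% with Ino80e siRNA. The limma adjusted p was 0.0041, 0.0279, 0.0108 and 0.0817 in that order, so that the difference in Ino80e itself was not called. Both NT arrays lay on a slide of their own, Ino80 and Ino80b shared another, and Ino80c and Ino80e shared the last of the 3. A slide and a knockdown cannot be told apart in any comparison with NT, while Ino80 against Ino80b and Ino80c against Ino80e were compared within a slide.

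Of the 8 late cholesterol genes, 3 rose in the Ino80 knockdown and 2 in the Ino80b knockdown, beside 7.5% and 3.75% of all genes. Of these calls, only that of Sc5d in Ino80 was repeated on a second probe. The second Dhcr7 probe was negative in both knockdowns. The early enzymes moved both ways in Ino80. With Ino80 siRNA, Dhcr7, Hsd17b7, Stard4, Sc5d and Fdps rose and Acat2 fell. With Ino80b siRNA, Fasn, Scap, Dhcr7 and Sc5d rose. With Ino80c siRNA, Scap rose and Acat2 and Mvk fell. No gene of the set was called with Ino80e siRNA. With quantile scaling Acat2 also passed in Ino80b (4 higher, 1 lower), and with quantile or median scaling only 1 lower gene remained called in Ino80c.

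As shares, 6 of the 29 were called in the Ino80 knockdown (20.7%) beside 12.3% of all genes tested, and 4 of 29 in the Ino80b knockdown (13.8%) beside 6.41%. In the Ino80c knockdown 3 of 29 were called (10.3%) beside 6.38%. By direction, 5 of the 29 rose in Ino80 beside 7.5% of all genes, 4 rose in Ino80b beside 3.75%, and 1 rose in Ino80c beside 4.8%. The 1 gene that fell in Ino80 stood beside 4.76% of all genes, the 0 in Ino80b beside 2.66% and the 2 in Ino80c beside 1.58%. In the Ino80e knockdown limma called 0 of the 29 and 0 of the 20663 genes (0% of all genes). At an unadjusted p under 0.05 there were 11 of the 29 genes and 5886 genes in all (28.5%) in that comparison, and other settings called 0 to 8 of the set. Over the 4 comparisons, which share the NT arrays, 9 of the 29 were called at least once (31.0%, beside 15.8% of all genes) and 20 never. The set stood clear of background on all 10 arrays, which not all tested genes did. With only such probes, 9, 7 and 4 of the set were called in Ino80, Ino80b and Ino80c, beside 19.5%, 13.1% and 13%. These counts rest on few arrays. They moved with the array that was left out. Fits that leave out 1 array keep a single array in a group, so their counts are not given here. In those fits a move of the set cannot be told from a move of all genes.

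**Figure D1:**
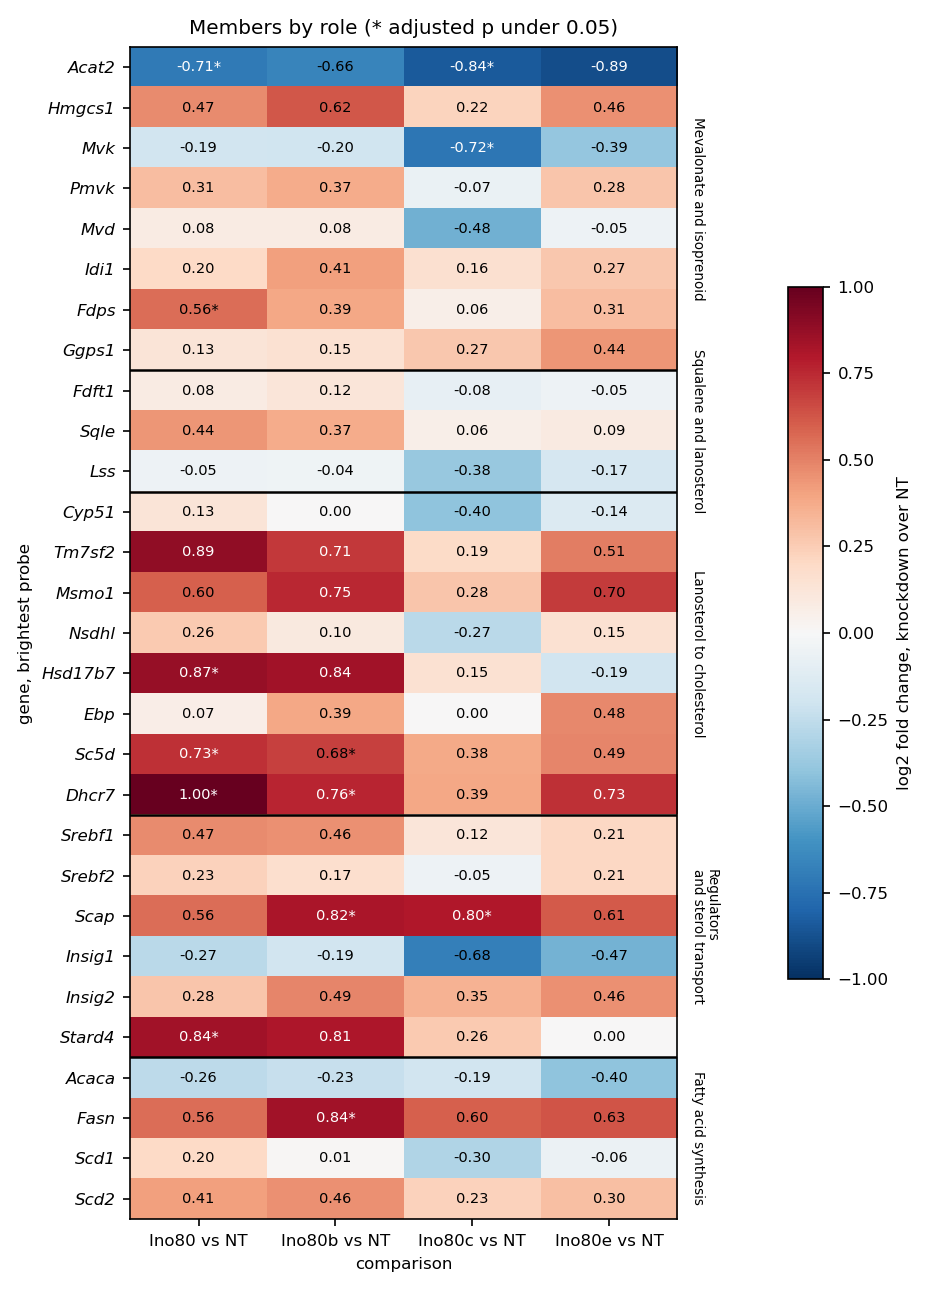
Log2 fold change of each of the 29 genes (rows, grouped by role) in each knockdown over NT (columns), n = 2 arrays in each group; an asterisk marks an adjusted p under 0.05 and red is higher in the knockdown. The late genes Hsd17b7, Sc5d and Dhcr7 lie between 0.68 and 1.00 in the Ino80 and Ino80b columns, and Acat2 is negative in all 4 columns.

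Most fold changes were positive: 24 of 29 in Ino80, 24 in Ino80b, 16 in Ino80c and 19 in Ino80e. The median of all 20663 genes was itself above 0 in each knockdown, at 0.17, 0.13, 0.26 and 0.19 for Ino80, Ino80b, Ino80c and Ino80e. Relative to that median, 19, 19, 8 and 16 of the 29 were higher. The median of the set minus the median of all genes was 0.11 in Ino80, 0.26 in Ino80b, -0.19 in Ino80c and 0.02 in Ino80e. In Ino80c most of the set therefore lay below the middle gene. Both knockdown arrays were above both NT arrays for 16 of the 29 genes in Ino80, 19 in Ino80b, 11 in Ino80c and 16 in Ino80e, beside 35.4%, 37.2%, 44.5% and 40.7% of all genes. Both were below for 1, 2, 8 and 4 of the 29, beside 18.6%, 21.2%, 15.9% and 17.1%. A positive fold change in all 4 knockdowns was seen for 15 of the 29 (45% of all genes) and a negative one for 5 (17.3% of all genes): Acat2, Mvk, Lss, Insig1 and Acaca.

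Markers of other cells and of the stem cell state moved with the groups too. Their counts stand beside 7.5%, 3.75% and 4.8% of all genes higher in Ino80, Ino80b and Ino80c, and 4.76%, 2.66% and 1.58% lower. The summed linear level of 8 stem cell genes, all tested, was 407 to 506 in Ino80, 495 to 587 in Ino80b, 583 to 586 in Ino80c and 651 to 737 in Ino80e, against 590 to 622 in NT. Of these, Pou5f1 and Esrrb fell in Ino80 and Ino80b, and Esrrb fell in Ino80c. For primitive or visceral endoderm, a cell type that makes lipoproteins, 10 of 12 genes were tested, with 7 lower in Ino80, 5 lower in Ino80b and 0 called in Ino80c and Ino80e. Their sum was 1.32 to 1.52 in Ino80, 2.12 to 2.25 in Ino80b, 2.61 to 3.08 in Ino80c and 3.83 to 4.72 in Ino80e, against 3.02 to 3.56 in NT. Of 12 fibroblast feeder genes 11 were tested, and 4, 2, 3 and 0 rose in Ino80, Ino80b, Ino80c and Ino80e. Their sum was 37.4 to 38.9 in Ino80, 25.2 to 30.8 in Ino80b, 26.6 to 31.4 in Ino80c and 22.0 to 24.8 in Ino80e, against 30.3 to 32.2 in NT. The part of these cells in the results on sterol genes was not tested, and in bulk RNA fewer cells of a type and less RNA per cell cannot be told apart.

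The last steps, from lanosterol to cholesterol, held 3 of the 5 genes that rose in Ino80. Of the 8 genes in this stretch those 3 rose in Ino80, beside 7.5% of all genes, and 2 rose in Ino80b, beside 3.75%. All 8 had positive fold changes in both, although Cyp51 rounded to 0.00 in Ino80b. Of all 20663 genes, 13000 were positive in Ino80 and 12514 in Ino80b. In each, 6 of the 8 lay above the median of all genes. Cyp51 was below it in both, Ebp in Ino80 and Nsdhl in Ino80b. The median fold change of the 8 genes was 0.67 in Ino80, 0.70 in Ino80b, 0.17 in Ino80c and 0.49 in Ino80e. Minus the median of all genes these were 0.50, 0.57, -0.09 and 0.29.

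Dhcr7 encodes 7-dehydrocholesterol reductase, which carries out the final step to cholesterol. Its brightest probe read 3.72 and 3.92 in Ino80, 3.46 and 3.72 in Ino80b, 3.28 and 3.16 in Ino80c and 3.59 and 3.52 in Ino80e, against 2.88 and 2.78 in NT. Every knockdown array was above both NT arrays. The fold change was 1.00 ± 0.14 in Ino80 (limma adjusted p = 0.00937) and 0.76 ± 0.14 in Ino80b (adjusted p = 0.0332). It was 0.39 ± 0.14 in Ino80c (adjusted p = 0.124) and 0.73 ± 0.14 in Ino80e (adjusted p = 0.0741). Another Dhcr7 probe gave negative values, described further on with its sequence.

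Sc5d encodes the sterol C5-desaturase, the enzyme that makes the substrate of DHCR7. It read 1.40 and 1.56 in Ino80, 1.27 and 1.60 in Ino80b, 1.13 and 1.12 in Ino80c and 1.27 and 1.22 in Ino80e, against 0.75 and 0.75 in NT. Again no knockdown array overlapped NT. The fold change was 0.73 ± 0.14 in Ino80 (limma adjusted p = 0.0226) and 0.68 ± 0.14 in Ino80b (adjusted p = 0.0414), with 0.38 ± 0.14 in Ino80c and 0.49 ± 0.14 in Ino80e, neither called.

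Hsd17b7 encodes a 3-ketosteroid reductase that acts while the methyl groups of lanosterol are removed. It read -0.03 and 0.24 in Ino80, -0.04 and 0.18 in Ino80b, -0.61 and -0.63 in Ino80c and -0.86 and -1.06 in Ino80e, against -0.53 and -1.01 in NT. The Ino80 and Ino80b arrays were above all 6 others, and Ino80c and Ino80e overlapped NT. The fold change was 0.87 ± 0.20 in Ino80 (limma adjusted p = 0.0339) and 0.84 ± 0.20 in Ino80b (adjusted p = 0.0513), just outside the threshold in Ino80b. It was 0.15 ± 0.20 in Ino80c and -0.19 ± 0.20 in Ino80e.

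The other 5 genes of this stretch were not called in any comparison with NT. Tm7sf2, a sterol C14-reductase, gave 0.89 ± 0.24 in Ino80 (limma adjusted p = 0.0528), 0.71 in Ino80b, 0.19 in Ino80c and 0.51 in Ino80e, and all its knockdown arrays (0.62 to 1.59) were above NT (0.36 and 0.56). Msmo1, the C4-methylsterol oxidase, gave 0.60, 0.75, 0.28 and 0.70 in the same order, with a standard error of 0.35. Its 2 arrays lay far apart in every group, with the second higher in all 5, for example 4.24 and 4.77 in Ino80 against 3.65 and 4.15 in NT. Ebp, the sterol isomerase, gave 0.07, 0.39, 0.00 and 0.48. Nsdhl, which removes the C4 carboxyl group, gave 0.26, 0.10, -0.27 and 0.15. Cyp51, the lanosterol demethylase that opens this stretch, gave 0.13, 0.00, -0.40 and -0.14 on its brightest probe.

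**Figure D2:**
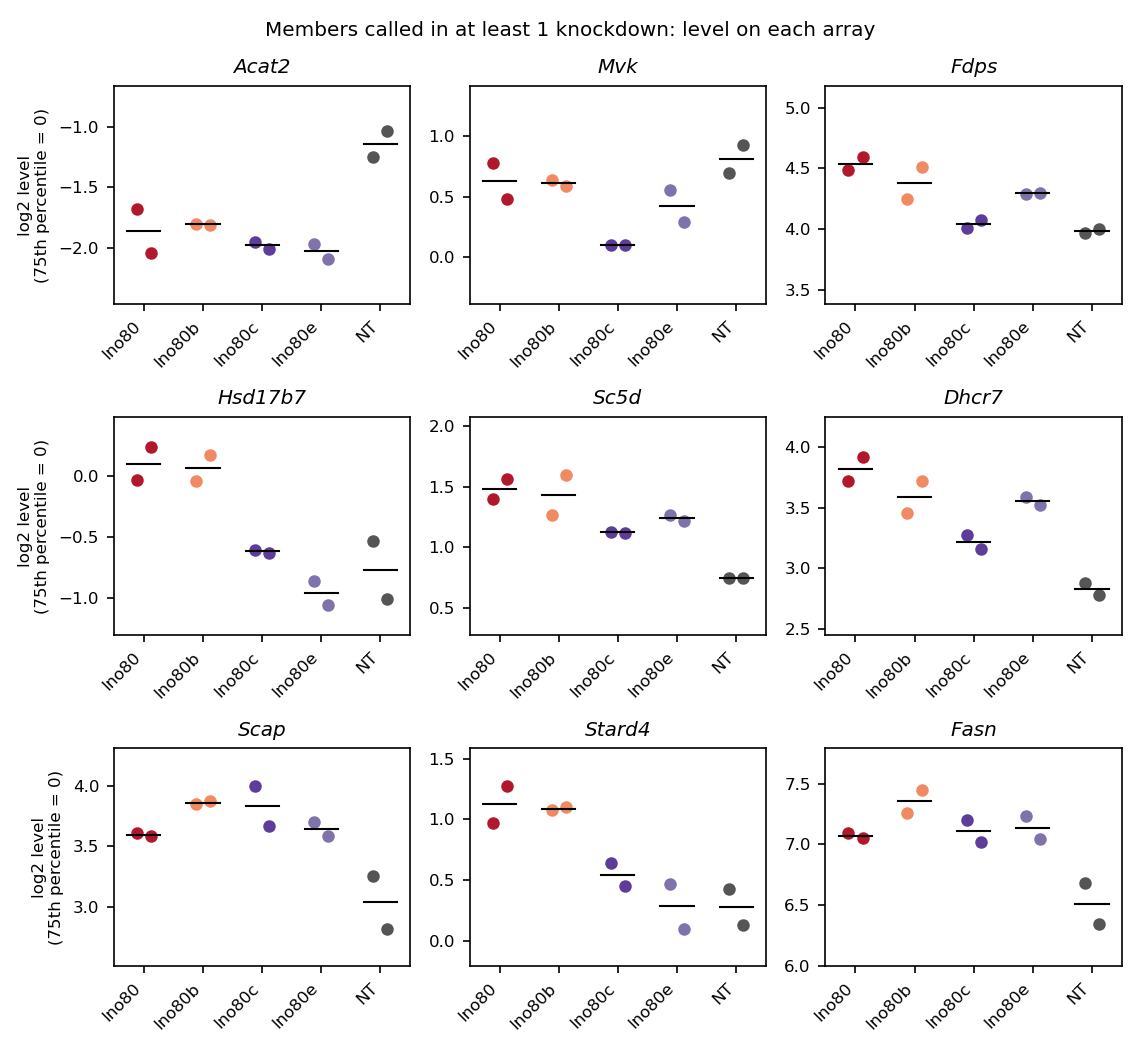
Log2 level relative to the array's 75th percentile (vertical axis, each panel spanning the same range) on each array for the 9 genes called in at least 1 knockdown; points are arrays, short lines are means of 2. Each gene is shown by its brightest probe. Fdps, Dhcr7, Sc5d, Scap and Fasn lie above NT in every knockdown, and Acat2 lies below NT in every knockdown. Hsd17b7 and Stard4 are high in Ino80 and Ino80b.

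Early enzymes of the mevalonate and isoprenoid stretch moved in both directions. Of 8 genes, 1 rose and 1 fell in Ino80, 2 fell in Ino80c, and none was called in Ino80b or Ino80e. Of all genes, 7.5% rose and 4.76% fell in Ino80, and 1.58% fell in Ino80c. The median fold change of the 8 genes was 0.17, 0.26, 0.00 and 0.27 for Ino80, Ino80b, Ino80c and Ino80e.

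Acat2 encodes the cytosolic thiolase that joins acetyl-CoA units at the start of the chain. It read -1.68 and -2.04 in Ino80, -1.80 and -1.81 in Ino80b, -1.95 and -2.01 in Ino80c and -1.97 and -2.09 in Ino80e, against -1.25 and -1.04 in NT. All 8 knockdown arrays were below both NT arrays, which held for no other gene of the set. It fell by 0.71 ± 0.16 in Ino80 (limma adjusted p = 0.0304) and by 0.84 ± 0.16 in Ino80c (adjusted p = 0.0329). The values of -0.66 ± 0.16 in Ino80b (adjusted p = 0.0521) and -0.89 ± 0.16 in Ino80e (adjusted p = 0.0733) were not called. The largest difference of the 4 was thus in the knockdown in which no gene on the array was called. The array has a single Acat2 probe. The array's coordinates place it on the plus strand of chr17, whereas the RefSeq window of Acat2 lies on the minus strand. Of 18748 probes compared, 98.4% lay on the strand of their gene. Whether this probe reads Acat2 RNA was not tested.

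Mvk encodes mevalonate kinase. It read 0.78 and 0.48 in Ino80, 0.64 and 0.59 in Ino80b, 0.10 and 0.10 in Ino80c and 0.56 and 0.29 in Ino80e, against 0.70 and 0.93 in NT. Ino80c was lowest and lay apart from all other arrays. Mvk fell by 0.72 ± 0.16 in Ino80c (limma adjusted p = 0.0489), with -0.19 in Ino80, -0.20 in Ino80b and -0.39 in Ino80e. A second probe gave -0.07, -0.07, -0.47 and -0.21 and was not called.

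Fdps encodes farnesyl diphosphate synthase, whose product feeds both sterols and protein prenylation. It read 4.49 and 4.59 in Ino80, 4.25 and 4.51 in Ino80b, 4.01 and 4.07 in Ino80c and 4.29 and 4.30 in Ino80e, against 3.97 and 4.00 in NT. No knockdown array overlapped NT, although Ino80c came within 0.06 of it on average. Fdps rose by 0.56 ± 0.13 in Ino80 (limma adjusted p = 0.0372) and showed 0.39, 0.06 and 0.31 in Ino80b, Ino80c and Ino80e. Its other probe gave 0.53, 0.78, 0.27 and 0.48, none called.

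The remaining 5 genes of the stretch were not called. Hmgcs1, the HMG-CoA synthase, gave 0.47, 0.62, 0.22 and 0.46 for Ino80, Ino80b, Ino80c and Ino80e. Pmvk, phosphomevalonate kinase, gave 0.31, 0.37, -0.07 and 0.28, and its second probe 0.38, 0.42, 0.09 and 0.38. Mvd, the diphosphomevalonate decarboxylase, gave 0.08, 0.08, -0.48 and -0.05. Isopentenyl diphosphate isomerase, Idi1, gave 0.20, 0.41, 0.16 and 0.27, and 0.16, 0.26, 0.08 and 0.20 on its other probe. Ggps1, which makes geranylgeranyl diphosphate for prenylation, was highest in Ino80e, with 0.13, 0.15, 0.27 and 0.44. Its other 2 probes gave -0.10, -0.30, 0.02 and 0.05, and 0.32, 0.13, 0.33 and 0.50.

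The middle stretch of squalene and lanosterol synthesis did not pass the test in any knockdown. Fdft1, squalene synthase, gave 0.08, 0.12, -0.08 and -0.05 in Ino80, Ino80b, Ino80c and Ino80e. Sqle, squalene epoxidase and a rate-limiting enzyme of the pathway, gave 0.44, 0.37, 0.06 and 0.09. Lss, lanosterol synthase, gave -0.05, -0.04, -0.38 and -0.17. The medians of these 3 genes minus all genes were -0.08, 0.00, -0.34 and -0.24.

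Among the 6 regulators and transport genes, Scap and Stard4 were called. Scap, the SREBP escort, read 3.61 and 3.58 in Ino80, 3.85 and 3.87 in Ino80b, 4.00 and 3.67 in Ino80c and 3.70 and 3.58 in Ino80e, against 3.25 and 2.82 in NT. All knockdown arrays were above NT, although the NT arrays themselves lay far apart. Scap rose by 0.82 ± 0.18 in Ino80b (limma adjusted p = 0.0447) and by 0.80 ± 0.18 in Ino80c (adjusted p = 0.0471). It showed 0.56 ± 0.18 in Ino80 (adjusted p = 0.0831) and 0.61 ± 0.18 in Ino80e (adjusted p = 0.101).

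Stard4 encodes a protein that carries cholesterol between membranes. It read 0.97 and 1.28 in Ino80, 1.08 and 1.10 in Ino80b, 0.64 and 0.45 in Ino80c and 0.47 and 0.10 in Ino80e, against 0.43 and 0.13 in NT. As for Hsd17b7, the Ino80 and Ino80b arrays were above all others on the brightest probe. Ino80c lay just above NT and Ino80e overlapped it. Stard4 rose by 0.84 ± 0.19 in Ino80 (limma adjusted p = 0.0337), and gave 0.81 ± 0.19 in Ino80b (adjusted p = 0.0517), 0.26 in Ino80c and 0.00 in Ino80e. Its other 2 probes gave 0.41, 0.29, 0.08 and 0.32, and 0.43, 0.32, 0.19 and 0.33, none called. On both of these the Ino80e arrays overlapped the Ino80 and Ino80b arrays, so the pattern rests on the brightest probe.

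Neither SREBP gene was called. Srebf1 gave 0.47 ± 0.13 in Ino80 (limma adjusted p = 0.0596), 0.46 ± 0.13 in Ino80b (adjusted p = 0.0761), 0.12 in Ino80c and 0.21 in Ino80e, and its knockdown arrays (3.89 to 4.37) all exceeded NT (3.71 and 3.84). Srebf2, which drives the cholesterol branch, gave 0.23, 0.17, -0.05 and 0.21 on its brightest probe. Insig1, itself a target of SREBP, gave -0.27, -0.19, -0.68 and -0.47 with a standard error of 0.33. Its NT arrays read -1.10 and -0.25, so that the spread within NT was wider than any of these differences. Its second probe gave -0.21, -0.10, -0.55 and -0.05. Insig2 gave 0.28, 0.49, 0.35 and 0.46, and 0.18, 0.13, 0.08 and -0.07 on its other kept probe.

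Of the 4 fatty acid synthesis genes only Fasn passed the test. Fasn, the fatty acid synthase, read 7.09 and 7.05 in Ino80, 7.26 and 7.45 in Ino80b, 7.20 and 7.02 in Ino80c and 7.23 and 7.04 in Ino80e, against 6.68 and 6.34 in NT. Every knockdown array was above NT. Fasn rose by 0.84 ± 0.16 in Ino80b (limma adjusted p = 0.0345) and gave 0.56 ± 0.16 in Ino80 (adjusted p = 0.0637), 0.60 ± 0.16 in Ino80c (adjusted p = 0.0675) and 0.63 ± 0.16 in Ino80e (adjusted p = 0.091). Its second probe gave 0.52, 0.61, 0.22 and 0.05, none called.

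Acaca, the acetyl-CoA carboxylase that supplies malonyl-CoA, gave -0.26, -0.23, -0.19 and -0.40. The stearoyl-CoA desaturases also differed in value: Scd2 gave 0.41, 0.46, 0.23 and 0.30, and Scd1 gave 0.20, 0.01, -0.30 and -0.06. All Scd2 knockdown arrays (4.95 to 5.32) were above NT (4.70 and 4.75).

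**Figure D3:**
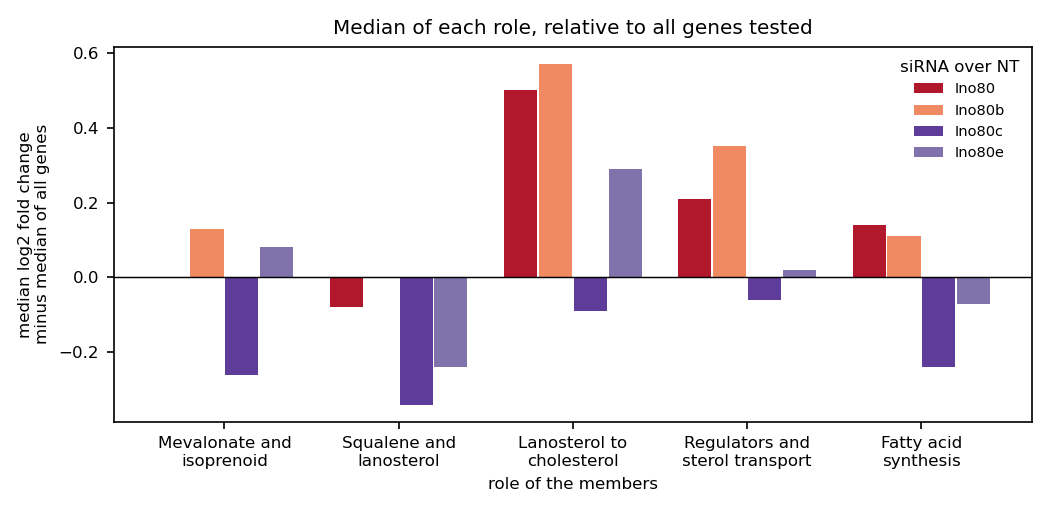
Median log2 fold change of the genes of each role minus the median of all 20663 genes (vertical axis), for each knockdown over NT. The lanosterol to cholesterol genes stand at 0.50 in Ino80 and 0.57 in Ino80b, and Ino80c is below 0 for all 5 roles.

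Set directly against each other, the knockdowns gave 1 call, and most of the set read lowest in Ino80c. Hsd17b7 with Ino80 against Ino80e was the single difference called among the 29 genes in the 6 pairs of knockdowns. Of all genes, 3.59% were called in at least 1 pair, 3.09% in that pair, and 1.14% as higher in Ino80 there. It was 1.06 ± 0.20 higher in Ino80 (limma adjusted p = 0.0398), a call that the loss of any 1 knockdown array ended. The second Hsd17b7 probe gave 0.60 ± 0.25 for Ino80 against Ino80e and was not called (limma adjusted p = 0.246 over all probes). On the brightest probe the value was 1.03 ± 0.20 in Ino80b against Ino80e (limma adjusted p = 0.0791). In that pair 0 of the 29 and 0.692% of all genes were called. Stard4 gave 0.84 ± 0.19 for Ino80 against Ino80e (limma adjusted p = 0.0655), but 0.09 and 0.10 on its other 2 probes.

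Ino80c was compared with Ino80e on the same slide. No gene of the set was called (0.0339% of all genes), but 24 of the 29 were lower in Ino80c, with a median of -0.21 against 0.02 for all genes. Both Ino80c arrays were below both Ino80e arrays for 16 of the 29, beside 20% of all genes. The lowest differences were in Ebp, at -0.48 (95% interval -0.92 to -0.04), and Mvd, at -0.43 (-0.83 to -0.04).

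Across slides the same 29 genes had a median of 0.35 for Ino80 against Ino80c and of 0.34 for Ino80b against Ino80c, with -0.07 for all genes in each. In these pairs 24 and 27 of the 29 were positive. Arrays did not overlap and were higher in Ino80 for 19 of the 29, beside 16.8% of all genes, and higher in Ino80b for 23 of the 29, beside 15.4%. No single gene was called (1.06% and 0.029% of all genes). The largest differences between Ino80 and Ino80c were in Hsd17b7 (0.72, 95% interval 0.26 to 1.18), Tm7sf2 (0.70, 0.14 to 1.26) and Dhcr7 (0.61, 0.27 to 0.94). These pairs share the Ino80c arrays, and slide and knockdown cannot be told apart in them.

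Ino80 and Ino80b shared a slide and gave close values. No gene of the set was called between them (0.0678% of all genes), and the differences ran between -0.32 (Ebp, 95% interval -0.75 to 0.12) and 0.23 (Dhcr7, -0.11 to 0.57). For Hsd17b7, Sc5d and Stard4, Ino80 minus Ino80b was 0.03, 0.04 and 0.03.

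Probes of a gene did not always move together. Of the 18 genes of the set with several kept probes, 6 had probes of opposite sign in Ino80, 7 in Ino80b, 7 in Ino80c and 9 in Ino80e. Of the 60 probes 58 were kept, and the 2 others, of Fdft1 and Insig2, were above background on 2 arrays each. Coordinates below are those of the scanner files on mouse build mm7, and whether a probe lies in coding sequence or in a UTR was not analysed here. They place the Hmgcs1 probes on an unplaced sequence and the Idi1 probes on chr2, whereas the RefSeq windows of both genes lie on chr13. The 5′ to 3′ order of these probes, used below, rests on the array's coordinates.

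Dhcr7 has 2 probes 571 bases apart on the plus strand. The brighter and more 3′ probe lies at chr7:140275628-140275687 and the other at chr7:140275057-140275116. Their first 30 bases are shown because they read opposite changes in the same transcript record:
Dhcr7 3′ probe: actagataggcttatcttagccttgcaggc
Dhcr7 5′ probe: ttctgtctagataacttaggcttatcagat

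The 3′ probe gave the 1.00, 0.76, 0.39 and 0.73 reported above. The 5′ probe read 0.32 and -0.20 in Ino80, -0.35 and -0.32 in Ino80b, -0.80 and -0.66 in Ino80c and -0.51 and -0.78 in Ino80e, against -0.17 and 0.56 in NT. Its NT arrays lay far apart, the Ino80 arrays overlapped them, and the arrays of the other knockdowns were below them. Its fold changes were -0.13, -0.52, -0.92 and -0.83 with a standard error of 0.27, and limma called none over all probes. With the mean of both probes, Dhcr7 in Ino80 was 0.43 (limma adjusted p = 0.110) and in Ino80b 0.12 (adjusted p = 0.653), so that both calls rest on the 3′ probe.

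The 3 probes of Cyp51 also disagreed. Its most 3′ probe, at chr5:4087477-4087536 on the minus strand, read 0.70 and 0.80 in Ino80, 0.40 and 0.87 in Ino80b, 0.07 and 0.26 in Ino80c and 0.48 and 0.48 in Ino80e, against -0.05 and -0.01 in NT. All knockdown arrays were above NT. That probe rose by 0.78 ± 0.17 in Ino80 (limma adjusted p = 0.0336 over all probes) and gave 0.67, 0.20 and 0.51 in the others. The brightest probe gave 0.13, 0.00, -0.40 and -0.14 and the third 0.08, 0.01, -0.36 and -0.23. Whether Cyp51 is called in Ino80 thus depends on the probe.

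Sc5d was called in Ino80 on either probe, and in Ino80b on its brightest probe alone. The other probe, at chr9:42186374-42186433, read -0.94 and -1.08 in Ino80 against -1.82 and -1.59 in NT, and rose by 0.70 ± 0.15 in Ino80 (limma adjusted p = 0.0326 over all probes). In Ino80b it gave 0.51 and was not called. The second Hsd17b7 probe gave 0.66, 0.68, 0.26 and 0.07 and was not called.

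Other genes also had probes that disagreed. For Srebf2, the most 3′ probe gave 0.23, 0.17, -0.05 and 0.21, while its other 3 probes were negative in all knockdowns, at -0.49, -0.67, -0.81 and -0.64, at -0.81, -0.90, -0.92 and -1.03, and at -0.17, -0.20, -0.08 and -0.04. Hmgcs1 gave -0.48, -0.49, -0.78 and -0.62 on a middle probe, and -0.14, -0.14, 0.42 and -0.89 on a dim 5′ probe. Lss gave 0.62, 0.60, 0.30 and 0.44 on its most 3′ probe and 0.02, 0.09, -0.32 and -0.06 on its most 5′ probe. The other Acaca probes gave 0.11, -0.43, 0.25 and -0.33, then 0.35, 0.23, 1.66 and 0.30, and then 0.25, 0.15, 0.57 and 0.01. The other Nsdhl probes gave 0.42, 0.34, 0.24 and 0.12, then 0.03, -0.16, -0.49 and -0.13, and then 0.22, 0.05, -0.27 and 0.14. None of these was called.

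**Figure D4:**
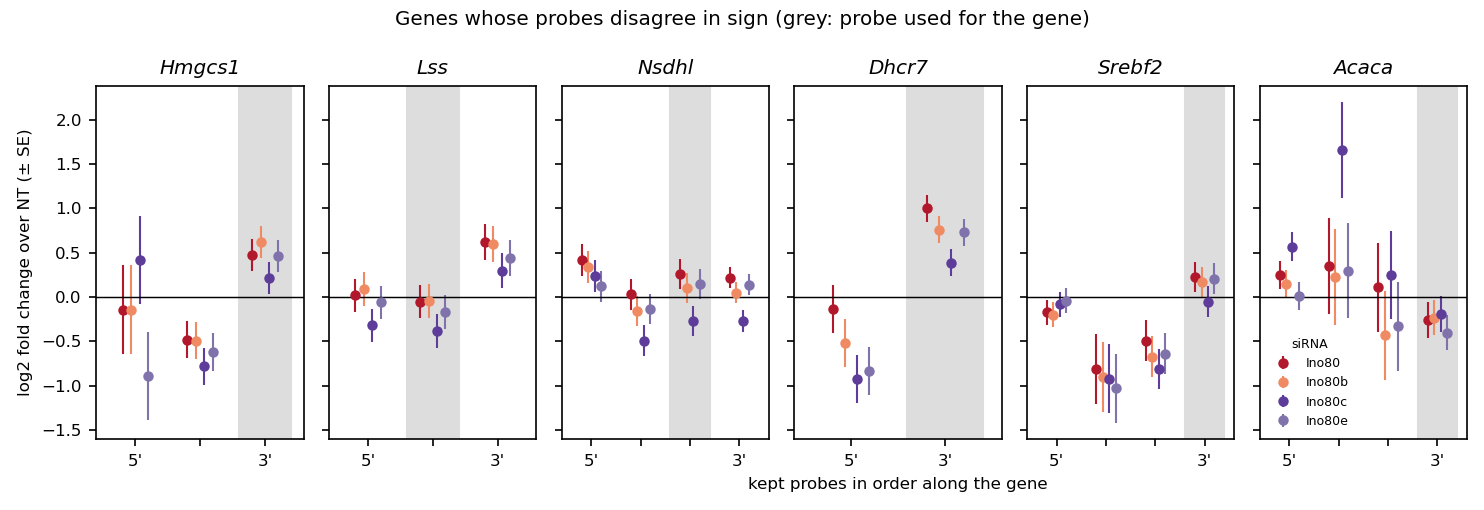
Log2 fold change over NT with its standard error (vertical axis) for each kept probe of 6 genes whose probes disagree in sign in at least 3 knockdowns, ordered along the gene with the most 5′ probe at the left. In Dhcr7 and Srebf2 the probe used for the gene is the most 3′ and the highest in all 4 knockdowns, and in Acaca it is the most 3′ and negative in all 4.

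A similar tilt was present over the whole array. In 6262 genes with several kept probes, the level of the most 3′ probe minus that of the most 5′ probe had a median of 1.21 to 1.38 on the knockdown arrays, against 1.19 and 1.14 on the NT arrays. Accordingly the fold change of the 3′ probe exceeded that of the 5′ probe by a median of 0.12, 0.16, 0.11 and 0.17 in Ino80, Ino80b, Ino80c and Ino80e. In the 18 genes of the set the median difference was 0.00, -0.07, -0.15 and -0.04, with 9, 8, 8 and 9 positive. With the most 3′ probe of every gene, chosen after the disagreement was seen, 6, 2, 2 and 0 genes of the set were called. The part of this 3′ tilt, which can move with RNA quality or labelling, in the values of single genes was not tested.

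Promoters were examined for motifs of the pathway's regulators. RefSeq windows (GRCm38.p6, 250 bases before to 50 after a gene's start) were matched for 23 of the 29 genes, with 31 windows in all. The motif CCAAT, bound by NF-Y, was present on either strand in 20 of the 23 genes (87.0%), beside 41.1% of 27025 genes in the RefSeq table. Per window the shares were 67.7% and 37.4%. Genes with several windows have more chances of a match. The 27025 genes were not limited to those expressed or tested in these cells. The E-box CACGTG, which reads the same on both strands and to which SREBP-1 and other factors can bind, was present in 5 of the 23 genes (21.7%, beside 8.09%): Dhcr7, Hsd17b7, Insig1, Sc5d and Scap. A sterol response element form, TCACNCCAC, was present only in Hmgcs1 (4.35%, beside 1.44%). The YY1 core CCATNTT was searched because YY1 works with INO80, and it was present in 4 of 23 genes (17.4%, beside 18.2%). Median GC content was 61.3% in the windows of the set and 52.7% in all windows. A match is only a run of letters, and no binding was measured here.

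The 160 bases before the start are printed for 5 genes, chosen because Hmgcs1 holds the only sterol response element form, Hsd17b7 and Sc5d hold an E-box and rose in Ino80, Fasn rose in Ino80b, and Mvk fell in Ino80c. Capitals mark the NF-Y box on either strand, the E-box and the sterol response element form, with the letters given above. On GRCm38.p6, Hmgcs1 is chr13:119690191-119690350 (plus strand), Hsd17b7 is chr1:169969206-169969365 (minus strand), Sc5d is chr9:42264301-42264460 (minus strand), Fasn is chr11:120824548-120824707 (minus strand) and Mvk is chr5:114444109-114444268 (plus strand).
Hmgcs1: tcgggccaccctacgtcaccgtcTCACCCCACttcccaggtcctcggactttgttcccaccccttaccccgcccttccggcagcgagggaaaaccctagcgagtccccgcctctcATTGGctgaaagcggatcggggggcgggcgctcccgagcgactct
Hsd17b7: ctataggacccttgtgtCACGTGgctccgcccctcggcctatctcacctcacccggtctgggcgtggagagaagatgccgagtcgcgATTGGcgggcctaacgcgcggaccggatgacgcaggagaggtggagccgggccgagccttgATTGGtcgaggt
Sc5d: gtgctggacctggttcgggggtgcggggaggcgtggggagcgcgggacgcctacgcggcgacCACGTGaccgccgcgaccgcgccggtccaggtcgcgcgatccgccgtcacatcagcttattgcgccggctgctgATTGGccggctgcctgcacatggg
Fasn: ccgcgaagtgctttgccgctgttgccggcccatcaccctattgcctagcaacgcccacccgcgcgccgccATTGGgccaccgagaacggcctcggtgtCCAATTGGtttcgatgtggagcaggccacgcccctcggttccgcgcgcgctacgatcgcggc
Mvk: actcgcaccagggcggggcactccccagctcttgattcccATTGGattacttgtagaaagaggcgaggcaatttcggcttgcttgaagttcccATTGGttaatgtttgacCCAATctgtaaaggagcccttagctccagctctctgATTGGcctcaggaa

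In these windows Hsd17b7 had 3 CCAAT matches, Fasn 3, Hmgcs1 4, Sc5d 1 and Mvk 5, some outside the stretch shown. In Fasn the matches beginning at -62 (plus strand) and -59 (minus strand) overlap and were counted separately. Mvk, which fell in Ino80c, and Hsd17b7, which rose in Ino80, both held several CCAAT matches. Whether a motif goes with the fold change was not tested. Among the other genes with an E-box, Insig1 was negative in all 4 knockdowns and Scap rose in Ino80b and Ino80c. Dhcr7, which held an E-box in only some of its windows, rose in Ino80 and Ino80b. Counted from the gene's start, the E-box began at position -143 in Hsd17b7 and at -98 in Sc5d, and the sterol response element form of Hmgcs1 began at -137.

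**Figure D5:**
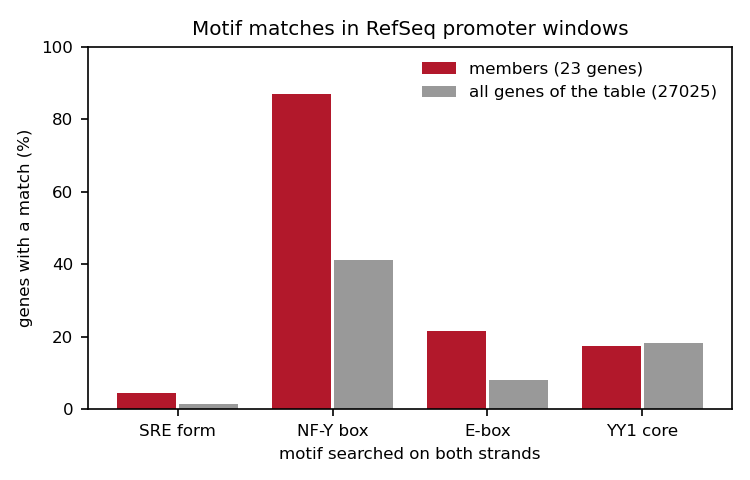
Share of genes with a match to each motif in their RefSeq promoter windows (vertical axis, percent), for 23 genes of the set and for all 27025 genes of the table. The NF-Y box (CCAAT) stands at 87.0% and 41.1%, and the YY1 core at 17.4% and 18.2%.

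Neighbouring pathways were described by gene lists of their own. Of all genes, 7.5%, 3.75% and 4.8% rose in Ino80, Ino80b and Ino80c, 4.76%, 2.66% and 1.58% fell, and 0% were called in Ino80e. The counts of each list stand beside these shares. Among 26 genes of fatty acid supply and elongation, 2 rose and 0 fell in each of Ino80, Ino80b and Ino80c, and 0 were called in Ino80e. Fads3, a fatty acid desaturase family member, rose by 1.30 ± 0.15 in Ino80, 1.31 ± 0.15 in Ino80b and 0.84 ± 0.15 in Ino80c, and gave 0.60 in Ino80e. Its arrays read -1.01 and -0.92 in Ino80 and -1.11 and -0.78 in Ino80b, against -2.15 and -2.37 in NT. Hacd1, a dehydratase of fatty acid elongation, rose by 0.64 in Ino80 and 0.53 in Ino80b, and Hacd3, of the same family, by 0.89 in Ino80c.

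Of 15 genes of SREBP processing and of protein degradation at the endoplasmic reticulum, 3 rose in Ino80, 2 rose and 1 fell in Ino80b, and 0 were called in Ino80c or Ino80e. Ube2g2, a ubiquitin-conjugating enzyme, rose by 0.75 in Ino80 and 0.69 in Ino80b. Sar1b, a GTPase of the COPII vesicles that carry SCAP and SREBP, rose by 0.54 in Ino80. Mbtps2, the site-2 protease that frees SREBP, fell by 0.61 in Ino80b.

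Of 24 genes of sterol uptake, storage and efflux, 3 rose and 2 fell in Ino80, 1 fell in Ino80b, and 0 were called in Ino80c or Ino80e. Abca1, the cholesterol exporter, read -0.67 and -0.71 in Ino80, against 0.84 and 0.27 in NT. It fell by 1.25 ± 0.19 in Ino80 (limma adjusted p = 0.0107), with -0.59, 0.11 and 0.30 in Ino80b, Ino80c and Ino80e. Lrp8, a lipoprotein receptor, rose by 1.33 ± 0.17 in Ino80 and gave 0.63, 0.09 and 0.27 in the others. Nceh1, a cholesteryl ester hydrolase, rose by 0.93 in Ino80. Soat2, which esterifies cholesterol, fell by 1.13 in Ino80b.

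Among 23 genes of fatty acid oxidation, 2 rose and 2 fell in Ino80, 1 rose in Ino80b, 1 fell in Ino80c and 0 were called in Ino80e. Cpt2, the inner carnitine palmitoyltransferase, rose by 1.11 ± 0.26 in Ino80. Acadvl, a long-chain acyl-CoA dehydrogenase, rose by 1.01 in Ino80 and 0.75 in Ino80b. The neuronal carnitine palmitoyltransferase gene Cpt1c fell by 0.67 in Ino80, and Slc25a20, the carnitine carrier, fell by 0.60 in Ino80c. None of 14 genes of isoprenoid use was called by limma in any knockdown. At an unadjusted p under 0.05 there were 5, 4, 3 and 5 of them in Ino80, Ino80b, Ino80c and Ino80e. Of all 20663 genes, 6463, 6068, 6317 and 5886 passed that cut. Median fold changes of these 5 lists minus all genes lay between -0.29, for sterol uptake, storage and efflux in Ino80, and 0.28, for SREBP processing in Ino80b. The lanosterol to cholesterol genes stood at 0.50 in Ino80 and 0.57 in Ino80b, the fibroblast feeder genes at 0.52 and 0.28, and the endoderm genes at -1.72 and -0.98.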

How the data were processed

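Labelled RNA of each sample was hybridised to 1 Agilent 4x44K array. Per the file headers, the authors quantified the spots with Feature Extraction 9.5.3.1, and the deposited processed signal is an intensity in the green channel, background-subtracted and not scaled between arrays. The labels name the dye Cy5, so the files' channel name is used here. A table of log2 values, also deposited, equals the log2 mean signal plus 1 constant per array. What set these constants, and so that table's scaling, stays unknown. It served as an alternative.

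Control spots and flagged spots were left out, and 41143 probes remained. Log2 processed signal minus the 75th percentile of each array (669 to 942 intensity units) was analysed. No spot was saturated, and the number of arrays limits the precision. A probe was kept if it cleared background on each array of some group (29587 probes), and the brightest kept probe represented a gene. Probes were named through the RefSeq gene table by accession (22932 probes) or by the array's gene name. All 10 arrays were fitted with limma 3.58.1 in R 4.3.3 (lmFit, eBayes), with group as the only term, 5 residual and 2.23 prior degrees of freedom, two-sided tests and Benjamini-Hochberg adjustment over 20663 genes in each of 10 comparisons. The fit was tested on simulated data. Intervals are 95% intervals of this fit.

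The members and the gene lists were chosen with earlier results of these data known. Every member is named. From each neighbouring list up to 4 called genes with the largest fold change are named, except 1 gene that is not reported here. Alternatives changed the background correction, scaling, filter, probe choice, prior, array weights, arrays fitted and replicate block, and left out each array in turn. Motifs were searched in RefSeq promoter sequences on both strands. The other 6 members had no entry in that table and are not analysed there.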

Additional observations from a re-analysis of the deposited data

Results flagged for a closer look

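Hsd17b7 differed between the Ino80 and Ino80e knockdowns by 1.06 ± 0.20 on the log2 scale (limma adjusted p = 0.0398, n = 2 arrays in each group), higher on both Ino80 arrays than on both Ino80e arrays. The arrays read -0.03 and 0.24 in Ino80 and -0.86 and -1.06 in Ino80e. The second probe of the gene gave 0.60 ± 0.25 and was not called (limma adjusted p = 0.246 over all probes). Hsd17b7 is listed because a direct test of 2 knockdowns passed the threshold. The groups lay on different slides, and the call was lost when any 1 knockdown array was left out.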

How the results depend on the processing

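With the probe or probe mean that stood for a gene, no fold change of a called gene changed sign under any alternative that was run, but the 5′ Dhcr7 probe alone gave -0.13 in Ino80 and -0.52 in Ino80b. The number of genes of the set called in Ino80, Ino80b, Ino80c and Ino80e over NT (6, 4, 3 and 0) moved with the processing, as did the share of all features called, given in brackets. It was 11, 12, 5 and 8 with normexp background correction (18.6%, 16%, 20.9% and 26.3%), 11, 7, 4 and 2 in the authors' deposited table (18.1%, 11.3%, 10.7% and 5.36%), and 11, 11, 4 and 4 with a trended robust prior (17.9%, 13.7%, 12.5% and 8.2%). It was 7, 5, 1 and 0 with quantile normalization (13.9%, 7.48%, 4.77% and 0%), 5, 3, 1 and 0 with each array centred on its median (11.5%, 5.66%, 3.74% and 0%), and 9, 7, 4 and 2 for probes well above background on all arrays (19.5%, 13.1%, 13% and 2.87%). Fewer were called with no filter on dim probes (2, 0, 0 and 0, beside 4.51%, 0.876%, 0.507% and 0%), with array weights (1, 0, 0 and 0, beside 3.3%, 2.56%, 0.624% and 0%) and with only the 4 arrays compared (0 in each, and 0 of all genes). Other choices of probe gave 4, 2, 1 and 0 for the mean of all kept probes (11.1%, 4.96%, 5.18% and 0%), 6, 4, 1 and 0 for every probe on its own (11.6%, 5.75%, 4.84% and 0%), and 6, 2, 2 and 0 for the most 3′ probe (12.1%, 5.95%, 5.64% and 0%), which was chosen after seeing the data. The number also moved with the array that was left out, but such fits keep 1 array in a group and their counts are not given. The cause of these moves in the counts was not tested, although fits with fewer arrays have fewer degrees of freedom.

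The labels do not say that a replicate number marks a shared batch or day, so the counts above treat the arrays as unpaired. Deviations of same-numbered arrays from their group means correlated at 0.00 to 0.32 over the 10 pairs of groups, over 0.1 in 8 of them and at 0.02 and 0.00 for Ino80c with NT and with Ino80. A fit with the replicate block called 11, 12, 4 and 3 of the set over NT (23.7%, 17.4%, 18.1% and 9.43% of all genes) and 2 for Ino80 over Ino80e (9.54%), so that genes given as not called include some that pass with the block.

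Ino80 over Ino80e (1 called) gave 2 with normexp (14.6%), quantile normalization (3.83%), the trended prior (5.51%) or the stricter filter (5.64%). It gave 6 in the deposited table (8.2%), and 0 with no filter, the mean of probes, the most 3′ probe or only the 4 arrays. Ino80 over Ino80c (0 called) gave 3 with normexp (3.77%), 11 in the deposited table (4.12%) and 1 with the trended prior (2.23%). Ino80b over Ino80e (0 called) gave 2 with normexp (2.28%), the deposited table (2%) or array weights (3.48%), and 1 with the stricter filter (1.78%) or the trended prior (1.8%). The other 3 pairs stayed at 0 under every alternative run.

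Of 23 alternatives, the calls of Dhcr7 and Sc5d in Ino80 held in 20 and 19, and the 11 other calls over NT in 7 to 14. For Dhcr7 these alternatives reused the 3′ probe, except the mean of both probes, which gave 0.43 in Ino80 and was not called. Its count therefore does not bear on the disagreement of its probes. With 2 arrays in each group and NT on a slide of its own, small differences cannot be resolved.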
